A study of Oryza sativa with 8 samples.

Results

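Nip was compared with 93-11 under normal conditions, with the 2 normal Hi-C libraries of each cultivar, 4 of the 8 libraries of the study. The libraries were picked by their labels alone. Hi-C records contacts between distant stretches of chromatin by ligation of crosslinked DNA. Nip (Nipponbare) is a japonica rice and 93-11 an indica rice, and the cultivars are not isogenic lines, so every difference below is one between whole genomes. Both groups were 3-week-old seedlings in culture solution, kept at 10 h of light and 14 h of dark without heat stress (HS), and 2 g of aerial parts went into a library, which thus averages all cell types of these organs. The 4 HS libraries, of seedlings of the same age and cultivars held at 45 °C for 36 h at high humidity and low light, served only to see whether a cultivar difference was of another size there. The methods of the study call the replicates biological.

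Chromosomes fold at several scales. At the megabase scale, stretches that contact each other preferentially form the A compartment, which is gene-rich and transcriptionally active, and the B compartment, which is gene-poor, often rich in transposable elements and largely silent. In rice, B chromatin lies mostly around the centromeres and A chromatin mostly along the distal arms. At a finer scale, topologically associating domains (TADs) are stretches with more contacts inside than across their borders, and smaller TADs can lie nested inside larger ones.

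For each library there was a list of TADs and, for each 50-kb bin, a compartment score. The score is the first principal component of the contact correlation matrix. A bin with a score above 0 was called A and any other scored bin B. About 5% of the bins of each chromosome had no score, in every library. Each TAD had a start, an end and a level, with level 0 for an outermost TAD. The cultivars were mapped to their own genomes, so no bin of Nip was matched to a bin of 93-11, and chromosomes were compared by summaries or by relative position. No sequence is shown, since coordinates of the files could not be tied to a genome of their build. The files hold no contact counts. By the sequencing statistics of the study, the deepest of the 4 libraries was of Nip and the shallowest of 93-11, and the other Nip library was shallower than the other 93-11 library.

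The genomes themselves differed in length and gene density. The 12 chromosomes summed to 373.1 Mb in Nip and 387.9 Mb in 93-11. Nip was shorter on 11 of 12 chromosomes, most on chromosome 11 (28.8 Mb in Nip, 31.7 Mb in 93-11) and chromosome 2 (35.8 and 38.4 Mb), and longer only on chromosome 12 (27.5 and 26.0 Mb). The gene numbers per bin summed to 41069 in Nip and 40598 in 93-11, or 110.1 genes per Mb in Nip and 104.7 in 93-11. Gene density was higher in Nip on all 12 chromosomes, by 0.555 genes per Mb on chromosome 4 up to 13.2 genes per Mb on chromosome 11. Bins without any gene made up 2.58% of bins in Nip and 5.23% in 93-11. These are properties of the assemblies and annotations, which the authors used for both replicates alike, and they carry no replicate error.

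Replicates gave nearly the same compartments. Pearson's r of the score across bins was 0.995 between replicates in both Nip and 93-11. The A or B call differed between replicates in 1.91% of the bins of Nip and 1.93% of those of 93-11. Chromosome 12 of 93-11 had the highest disagreement, with 4.88% of its bins.

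Each of 9 measures was computed per chromosome and library and compared between the cultivars with limma, with Benjamini-Hochberg adjustment over the 108 tests of 9 measures on 12 chromosomes and a threshold of 0.05. Of the 108 tests, 40 passed, or 37.0%. Chromosomes of a library are not independent of each other. For A share, the gene ratio, TAD number, outermost TAD size and coverage, limma took 1 common spread for all 12 chromosomes, which makes their p-values too small. Over the whole genome, 2 libraries against 2 allow an exact two-sided permutation test no p below 0.33, and that was its value wherever the libraries of the cultivars did not overlap.

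The clearest difference lay in where the genes were. B bins held more genes in Nip than in 93-11, while A bins held about as many. Genome-wide, the B bins of Nip held 4.24 and 4.23 genes on average in the 2 libraries, against 3.87 and 3.87 genes in the libraries of 93-11. The A bins held 6.96 and 6.96 genes in Nip, against 6.99 and 7.01 in 93-11. The mean of A bins was thus 1.64 and 1.65 times that of B bins in Nip, and 1.81 and 1.81 times in 93-11. A and B chromatin differed less in gene number in Nip, in both libraries.

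The lower ratio of A to B gene number in Nip was found on every chromosome. It passed the threshold on 12 of 12 chromosomes, a background of 100% for this measure, and always in the direction of a lower ratio in Nip. The ratio in Nip was 0.772 to 0.967 times that in 93-11. Chromosome 11 had the largest difference, with ratios of 1.71 and 1.70 in Nip and 2.20 and 2.23 in 93-11 (log2 difference -0.37 ± 0.0079, SE, adjusted p = 3.2e-23, limma). There, B bins held 3.70 and 3.69 genes in Nip and 2.77 and 2.75 in 93-11. Next were chromosome 8, with ratios of 1.60 and 1.63 in Nip and 1.91 and 1.91 in 93-11 (log2 difference -0.24, adjusted p = 5.3e-19, limma), and chromosome 10, with 1.63 and 1.64 in Nip and 1.87 and 1.87 in 93-11 (-0.20, adjusted p = 4.3e-17, limma). On all 3 chromosomes the libraries of the cultivars lay far apart relative to the gap between replicates. The smallest difference was that of chromosome 3, with 1.48 and 1.50 in Nip and 1.53 and 1.55 in 93-11.

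**Figure D1:**
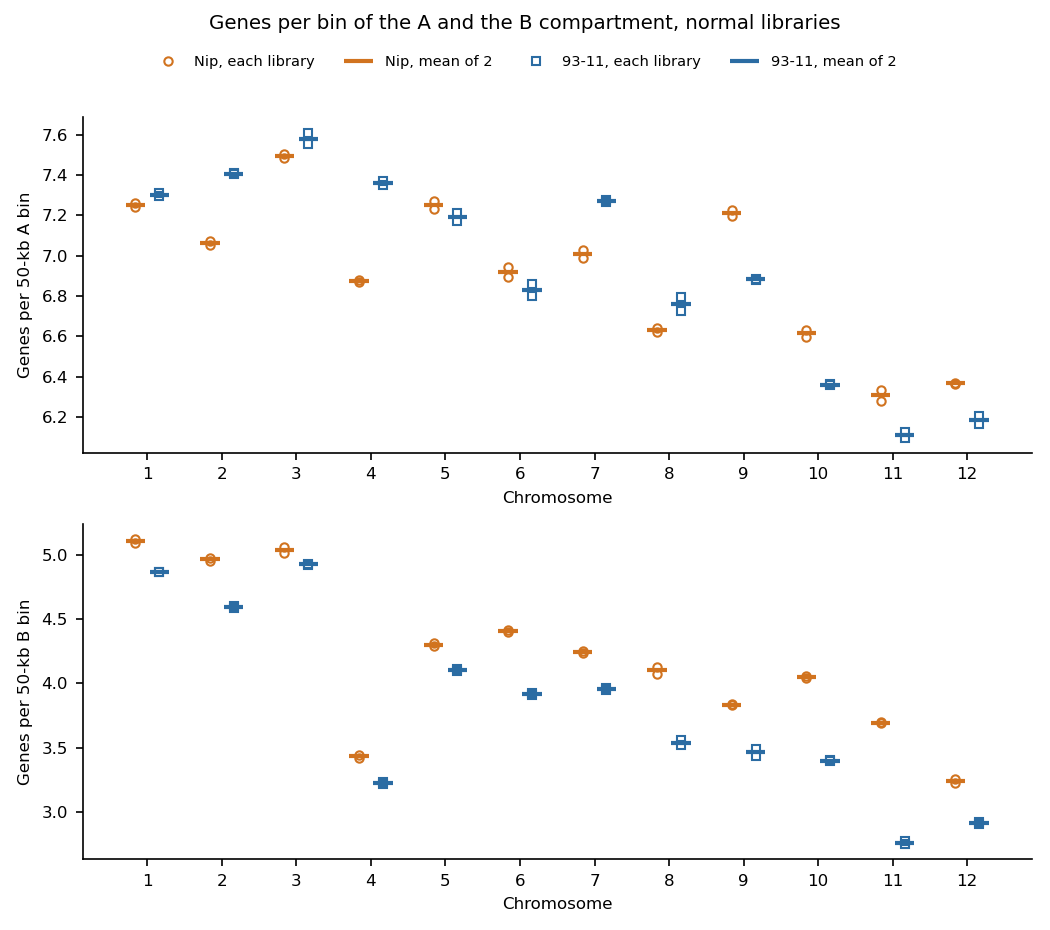
Mean number of genes per 50-kb bin in the A compartment (upper panel) and the B compartment (lower panel) on each of the 12 chromosomes, for 2 normal libraries of Nip (orange circles) and 2 of 93-11 (blue squares), with bars at the means. In the lower panel both Nip libraries lie above both 93-11 libraries on all 12 chromosomes, while in the upper panel they lie above on 6 and below on 6; the axes do not start at 0.

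The parts of this ratio behaved differently along the karyotype. Genes per B bin were higher in both Nip libraries than in both 93-11 libraries on all 12 chromosomes, by 0.109 genes on chromosome 3 up to 0.932 genes on chromosome 11. Genes per A bin were higher in both Nip libraries on 6 chromosomes and lower in both on the other 6. Chromosome 4, whose short arm is known as largely heterochromatic, had the strongest contrast between compartments in Nip, with 2.00 and 2.01 times as many genes in A as in B bins, and also in 93-11, with 2.28 and 2.29 times. Over the 12 chromosomes the ratio of Nip and that of 93-11 correlated with r = 0.875, a description over 12 points that share their libraries. A chromosome with a steep contrast in one cultivar thus tended to have one in the other.

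Bins without genes accounted for part of the difference by construction. Of the B bins, 3.45% and 3.52% held no gene in the libraries of Nip, against 6.82% and 6.75% in those of 93-11. Without the empty bins, the genome-wide log2 difference in the ratio was -0.09, against -0.14 with them. On chromosome 9 it then turned, from -0.08 to 0.0044, and on chromosome 5 it no longer passed the threshold. At the other end, 10 or more genes were found in 13.8% and 13.7% of A bins in Nip and in 15.1% and 15.3% in 93-11. Of the bins with 10 or more genes, 89.7% and 89.3% were A in Nip and 90.8% and 91.5% in 93-11. Among bins with 6 to 9 genes, A bins made up 68.2% and 68.7% in Nip and 70.3% and 70.1% in 93-11. At 3 to 5 genes the libraries overlapped, with 35.7% and 35.8% A bins in Nip and 36.4% and 35.3% in 93-11. Both Nip libraries thus had the lower A share among gene-rich bins. Pearson's r between score and gene number across bins was 0.552 and 0.550 in Nip and 0.599 and 0.600 in 93-11, and it was lower in both Nip libraries on all 12 chromosomes.

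According to the methods, the annotation served to decide which sign of the component is A, so that A bins hold more genes than B bins in each cultivar is no finding. The 2 cultivars have separate annotations, and the part of annotation in the gene numbers was not tested. Since both replicates carry the same gene numbers, the error above comes only from the A and B calls.

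The share of A chromatin differed little over the whole genome but more on single chromosomes, in both directions. Of the scored bins, 49.7% and 49.9% were A in Nip, against 48.9% and 48.5% in 93-11, a difference of 1.10 percentage points. Per chromosome, the share was higher in Nip on 4 and lower in Nip on 4 of the 12 chromosomes by limma, together 66.7%. The largest excess in Nip was on chromosome 2, where 53.4% and 53.5% of bins were A in Nip and 47.5% and 47.4% in 93-11 (difference 5.99 ± 0.447 percentage points, SE, adjusted p = 1.4e-11). Chromosome 3 followed with 55.8% and 56.1% in Nip and 50.9% and 50.3% in 93-11 (5.36 points, limma adjusted p = 1.3e-10). On chromosome 4 the share was 50% and 50.3% in Nip and 46.3% and 46.6% in 93-11 (3.73 points, limma adjusted p = 1.2e-07). The gap between the cultivars on these 3 chromosomes was several times that between replicates.

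The opposite was seen on smaller scale on other chromosomes. On chromosome 9 the A share was 43.8% and 44.3% in Nip and 46.0% and 46.9% in 93-11 (-2.38 points, limma adjusted p = 0.00011). Chromosome 6 had 44.7% and 45.7% in Nip and 47.6% and 47.0% in 93-11 (-2.11 points, limma adjusted p = 0.00049), and chromosome 5 had 45.5% and 46.0% in Nip and 47.7% and 47.3% in 93-11 (-1.76 points, limma adjusted p = 0.0030). On all 3 the Nip libraries lay below those of 93-11. None of these 3 calls was kept without each of the 4 libraries in turn. With a replicate block in the fit, those on chromosomes 5 and 6 were lost as well. The excess on chromosomes 2, 3 and 4 passed without any 1 of the 4 libraries. The total was 5 chromosomes without Nip replicate 1, 7 without Nip replicate 2, 3 without 93-11 replicate 1 and 4 without 93-11 replicate 2.

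**Figure D2:**
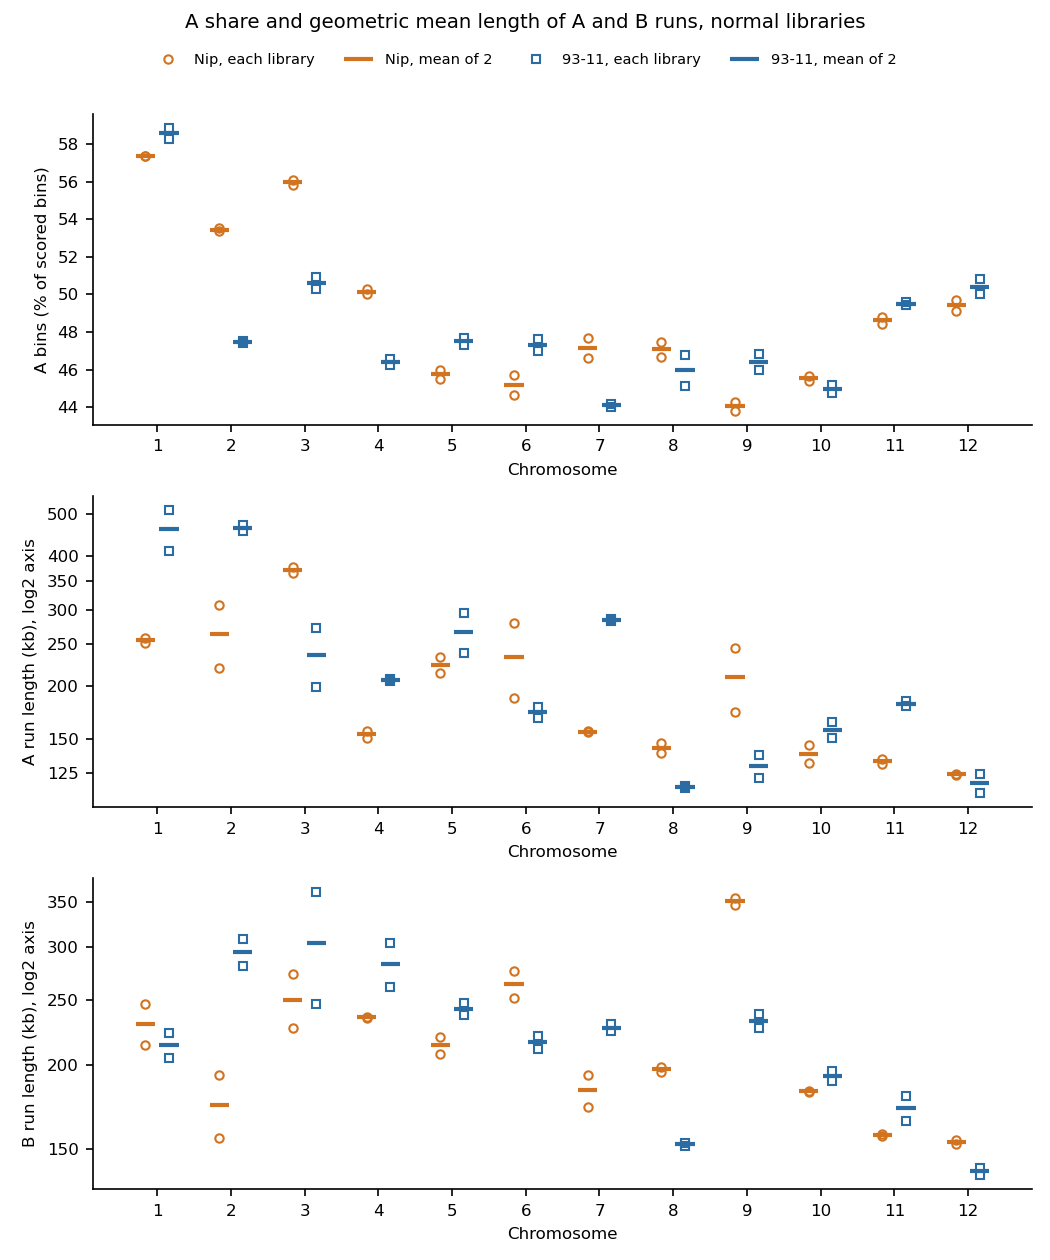
Share of scored bins in the A compartment (top), and the geometric mean length of runs of A bins (middle) and of B bins (bottom, both on a log2 axis in kb), on each of the 12 chromosomes for 2 normal libraries of Nip (orange circles) and 2 of 93-11 (blue squares), with bars at the means. Chromosomes 2 and 3 stand out by a higher A share in Nip, by 5.99 and 5.36 percentage points, and chromosome 9 by longer B runs in Nip; no axis starts at 0.

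Compartments were then compared as runs of neighbouring bins with the same call. Nip had slightly fewer changes between A and B along its chromosomes, with 1.59 and 1.60 borders per Mb, against 1.66 and 1.67 in 93-11. More of its chromatin lay in long runs. Runs of 1 Mb or more held 64.4% and 63.7% of the A bins in Nip and 61.3% and 61.6% in 93-11, and 46.6% and 47.0% of the B bins in Nip and 40.1% and 42.7% in 93-11. Yet the longest A run and the longest B run of the genome were those of 93-11, both on chromosome 3. By chromosome, the longest run was longer in Nip on some chromosomes and in 93-11 on others. The geometric mean length of A runs was 176 and 171 kb in Nip and 187 and 179 kb in 93-11, and that of B runs was 199 and 197 kb in Nip and 200.2 and 200.3 kb in 93-11. The direction for B runs depended on the summary. Their arithmetic mean was 389.9 and 387.04 kb in Nip and 382.05 and 384.7 kb in 93-11, and with unscored bins skipped the log2 difference of the geometric mean was 0.066, higher in Nip. Single bins made up 20.4% and 20.7% of the B runs in Nip, against 23.5% and 24.1% in 93-11.

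A run length differed on 5 of 12 chromosomes, or 41.7%. It was higher in Nip on chromosome 8, with 147 and 140 kb in Nip and 116 and 117 kb in 93-11 (1.23-fold, limma adjusted p = 0.030), and lower in Nip on 4 others. On chromosome 7, A runs were 156 and 157 kb in Nip and 282 and 286 kb in 93-11 (0.550-fold, 95% interval 0.498 to 0.608, adjusted p = 0.0011). On chromosome 1 they were 250.4 and 258 kb in Nip and 511 and 410 kb in 93-11 (0.556-fold, limma adjusted p = 0.020), and on chromosome 11 they were 132 and 135 kb in Nip and 184 and 179 kb in 93-11 (0.735-fold, limma adjusted p = 0.0092). The geometric mean of A runs was thus lower in Nip on these 3 chromosomes, while their longest A run was 6450 and 6450 kb in Nip and 3600 and 3550 kb in 93-11 on chromosome 1, 2150 and 2450 kb in Nip and 1300 and 1300 kb in 93-11 on chromosome 11, and 3200 and 3200 kb in Nip and 3300 and 3300 kb in 93-11 on chromosome 7. The call on chromosome 1 was lost with unscored bins skipped, with single-bin runs left out, and without either library of Nip. That on chromosome 8 was lost with unscored bins skipped, with single-bin runs left out, and without each of the 4 libraries in turn. The count was 3 without 93-11 replicate 1 and 4 without any other library, and chromosome 7 was called each time.

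B run length also differed on 5 of 12 chromosomes, 41.7%. On chromosome 9, B runs were 347 and 355 kb in Nip and 227 and 238 kb in 93-11 (1.51-fold, 95% interval 1.37 to 1.67, limma adjusted p = 0.0016). On chromosome 8 they were 199 and 195 kb in Nip and 152 and 153 kb in 93-11 (1.29-fold, limma adjusted p = 0.0054), and on chromosome 6 they were 251 and 276 kb in Nip and 221 and 211 kb in 93-11 (1.22-fold, limma adjusted p = 0.041). These 3 had longer B runs in Nip. Shorter B runs in Nip were called on chromosome 2, with 193 and 156 kb in Nip and 281 and 309 kb in 93-11 (0.589-fold, limma adjusted p = 0.014), and on chromosome 7, with 193 and 173 kb in Nip and 225 and 230.3 kb in 93-11 (0.804-fold, limma adjusted p = 0.037). Only chromosome 9 was called without each of the 4 libraries in turn. The count was 2 without Nip replicate 1, 2 without Nip replicate 2, 3 without 93-11 replicate 1 and 2 without 93-11 replicate 2.

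The longest runs of each compartment were then placed along the chromosomes. The longest A run that both Nip libraries shared spanned 6.45 Mb of chromosome 1 (1500001 to 7950000, coordinates of the files of Nip), held 908 genes and lay between 3.45% and 18.3% of the chromosome's length. In 93-11 it spanned 7.40 Mb of chromosome 3 (500001 to 7900000, in the coordinates of 93-11), with 1100 genes, from 1.28% to 20.2% of the length. On the same chromosome the longest A run was 3600 and 7000 kb in the 2 libraries of Nip, so that in Nip replicate 2 the longest A run of the genome also lay on chromosome 3. The longest B run of Nip covered 5.40 Mb of chromosome 3 (22000001 to 27400000), with 576 genes, from 59.4% to 74.0% of the length. That of 93-11 covered 6.40 Mb, also of chromosome 3 (14750001 to 21150000), with 560 genes, from 37.8% to 54.2%. A second long B run of 93-11, of 6.10 Mb with 601 genes, lay at 57.5% to 73.2% of chromosome 3, a relative position much like that of the longest B run of Nip. Both long B runs held fewer genes per bin, 5.33 in Nip and 4.38 in 93-11, than the longest A runs, with 7.04 in Nip and 7.43 in 93-11.

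The layout of compartments along the chromosomes was largely shared. Each chromosome was divided into 50 windows of equal relative length, and the score was scaled by its SD on the chromosome. Across the 600 windows, the mean scores of Nip and 93-11 correlated with r = 0.904, against 0.999 between replicates of either cultivar. Windows are neighbours and not independent, so these are descriptions. Where both replicates of each cultivar agreed on the sign, 529 of 587 windows, or 90.1%, had the same sign in Nip and 93-11. Of the rest, 34 were positive in Nip alone and 24 in 93-11 alone. Chromosome 4 had the most similar profile, with r = 0.969, and chromosomes 8 and 11 the least similar, with r = 0.757 and 0.796. Of the windows of chromosome 8, 74.0% had the same sign, the lowest share of any chromosome. The windows assume that length differences are spread evenly over a chromosome, and the part of local insertions in the opposite windows was not tested.

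**Figure D3:**
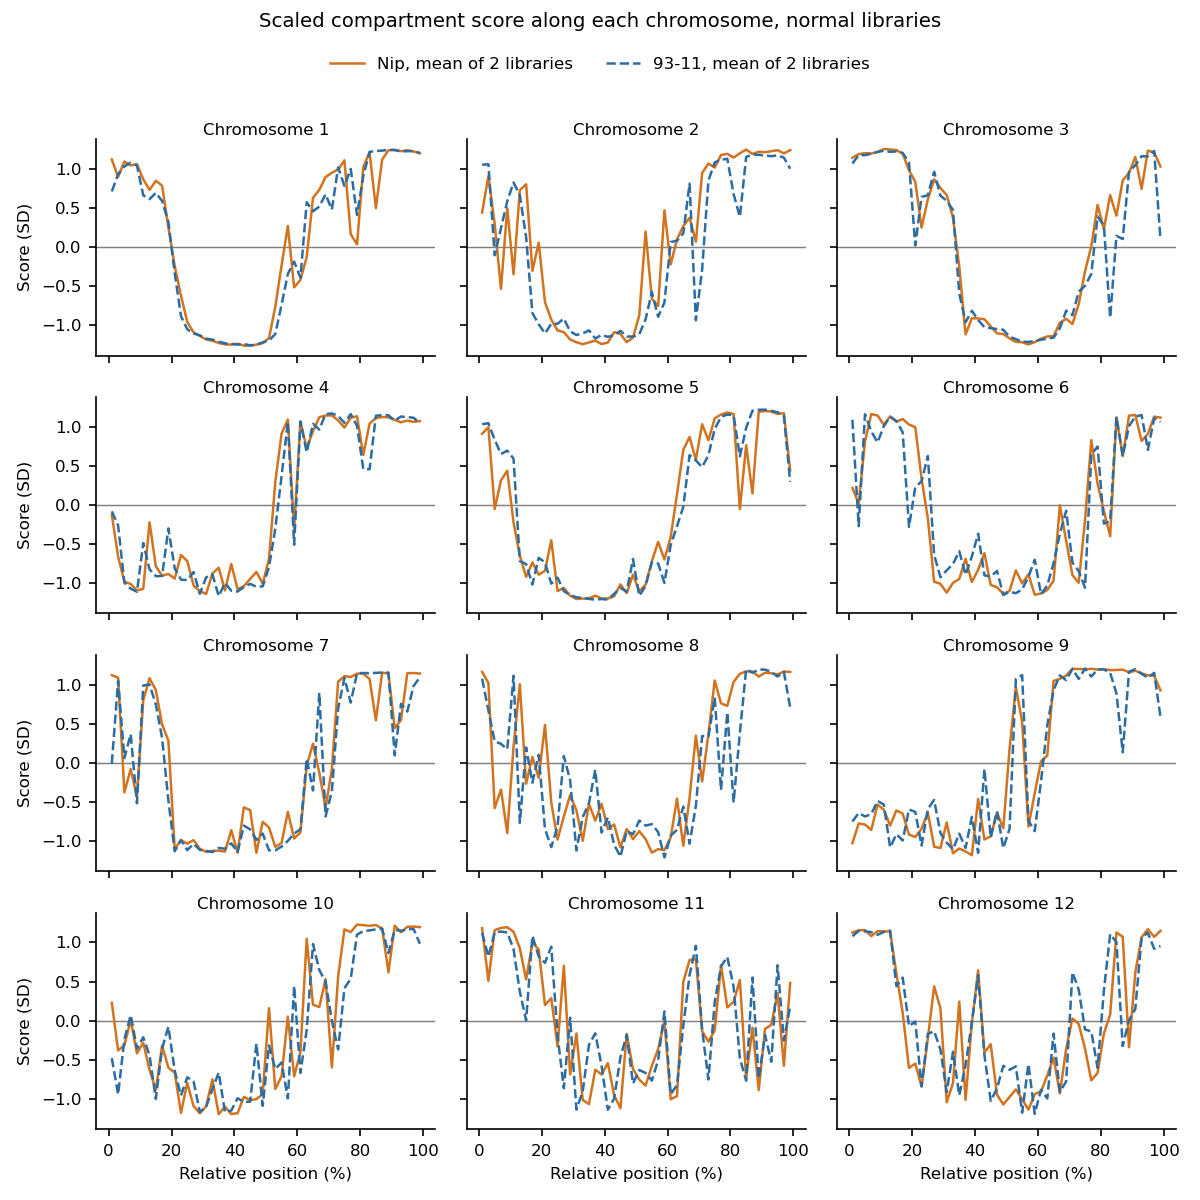
Compartment score, in SDs of the chromosome, in 50 windows along the relative length of each of the 12 chromosomes, for Nip (orange, solid) and 93-11 (blue, dashed), each the mean of 2 normal libraries. The profiles nearly coincide on chromosome 4 (r = 0.969), with A chromatin at the far end and B chromatin before it, and part most on chromosome 8 (r = 0.757).

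Most opposite calls were short. Windows of opposite sign formed 52 stretches, of which 47 were a single window. The longest was at 4% to 10% of chromosome 8, which was B in Nip, with scores of -0.61 and -0.61 SD, and A in 93-11, with 0.23 and 0.22 SD. It held 5.71 genes per bin in Nip and 6.22 in 93-11. Chromosome 7 had a like stretch at 4% to 8%, with scores of -0.25 and -0.21 SD in Nip and 0.22 and 0.20 SD in 93-11, and 7.22 genes per bin in Nip and 7.46 in 93-11. The other 3 were A in Nip and B in 93-11. At 68% to 72% of chromosome 2, the score was 0.51 and 0.50 SD in Nip and -0.61 and -0.62 SD in 93-11. This stretch held 6.28 genes per bin in Nip and 4.53 in 93-11. At 26% to 30% of chromosome 12, the score was 0.29 and 0.30 SD in Nip and -0.21 and -0.29 SD in 93-11, with 4.95 genes per bin in Nip and 3.71 in 93-11. At 62% to 66% of chromosome 5, it was 0.41 and 0.43 SD in Nip and -0.14 and -0.16 SD in 93-11, with 6.29 genes per bin in Nip and 5.84 in 93-11. In these 5 of the 52 stretches the cultivar with the A call had more genes per bin. Gene density was higher in Nip on all 12 chromosomes, and a link between call and gene number was not tested.

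Each chromosome was also cut into 5 parts of equal length, pooled over chromosomes. The A share of the first part was 66.2% and 66.2% in Nip and 66.4% and 66.1% in 93-11. It was lowest in the middle part, with 13.2% and 13.3% in Nip and 11.4% and 11.2% in 93-11. In the last part it reached 89.5% and 89.9% in Nip and 86.7% and 86.7% in 93-11. Gene number parted most in the middle part, with 4.26 genes per bin in Nip and 3.60 in 93-11, and least in the last, with 6.88 in Nip and 6.86 in 93-11. The share of windows with the same sign was 84.5% in the first part, 90.6% in the middle 3 parts and 94.1% in the last. The correlation of scores across windows had another order, with r = 0.843 in the first part, 0.880 in the middle 3 parts and 0.697 in the last.

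TADs were more numerous and smaller in Nip than in 93-11. The lists held 8767 and 8703 TADs in Nip and 8531 and 8317 in 93-11, or 23.5 and 23.3 TADs per Mb in Nip and 22.0 and 21.4 in 93-11. Their geometric mean size was 74.8 and 76.8 kb in Nip and 83.0 and 82.6 kb in 93-11, and their median was 65 and 70 kb in Nip and 75 and 75 kb in 93-11. Both Nip libraries lay on the same side of both 93-11 libraries in each. By the study's statistics, contacts over short distances were more numerous in both Nip libraries, and their part in TAD number and size was not tested.

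Differences in TAD number were spread over the size range unevenly. TADs of 25 to 40 kb made up 26.4% and 25.5% of the lists in Nip and 22.4% and 22.1% in 93-11, and TADs of 45 to 95 kb 40.6% and 40.2% in Nip and 38.7% and 39.5% in 93-11. Shares above this size were lower in Nip, with 20.2% and 20.8% of TADs at 100 to 195 kb in Nip and 22.7% and 22.8% in 93-11, and 5.17% and 6.06% at 300 kb or more in Nip and 6.92% and 6.34% in 93-11. The share was thus higher in Nip in both classes below 100 kb, by 3.68 percentage points at 25 to 40 kb and 1.30 at 45 to 95 kb. With TADs under 50 kb left out, the difference was 0.249 TADs per Mb, against 1.70 with all. The former is a net value over sizes where Nip had higher shares in some classes and lower shares in others. Of all pairs of a Nip and a 93-11 TAD, the TAD of Nip was the larger in 46.1% to 47.1%, with 49.0% between the replicates of Nip and 50.1% between those of 93-11, with ties shared equally.

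**Figure D4:**
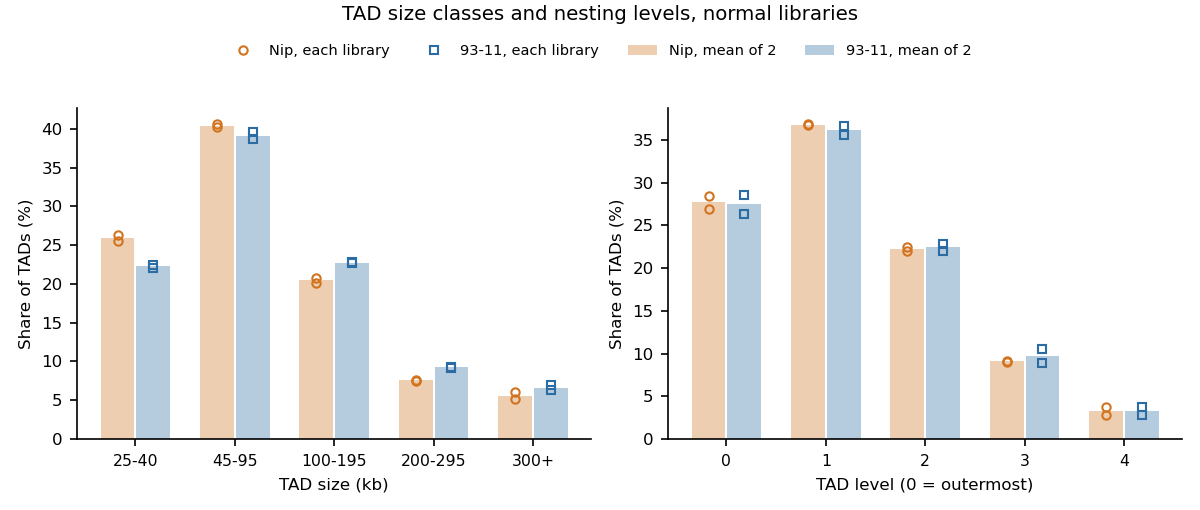
Share of TADs, in percent, by size class (left, kb) and by nesting level (right, levels 0 to 4), with bars from 0 at the means of 2 normal libraries of Nip (orange) and 2 of 93-11 (blue) and points at each library. TADs of 25 to 40 kb are more frequent in both Nip libraries, with 26.4% and 25.5% in Nip and 22.4% and 22.1% in 93-11, while the libraries of the cultivars overlap at levels 0, 2, 3 and 4.

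By chromosome, TAD number per Mb was higher in Nip on 3 of 12 chromosomes, 25%, and lower on none. Chromosome 11 had 21.2 and 21.4 TADs per Mb in Nip and 18.5 and 14.7 in 93-11 (difference 4.68 ± 1.07, SE, adjusted p = 0.0011). Chromosome 9 had 23.0 and 23.2 in Nip and 20.0 and 18.1 in 93-11 (4.02, limma adjusted p = 0.0047), and chromosome 2 had 26.6 and 26.7 in Nip and 22.9 and 23.4 in 93-11 (3.48, limma adjusted p = 0.013). On chromosome 11 the replicates of 93-11 lay nearly as far apart as the cultivars. Chromosomes 9 and 2 were not called without Nip replicate 1 or without Nip replicate 2, which leaves a count of 1, while 3 were called without either library of 93-11. With all 8 libraries in the fit, no chromosome was called. The mean was higher in Nip on the other 9 chromosomes too, though none of these passed the threshold. Not divided by length, the mean number was lower in Nip on chromosomes 3, 4, 8 and 10, where the libraries of the cultivars overlapped.

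TAD size was lower in Nip on 4 of 12 chromosomes, 33.3%, and higher on none. On chromosome 11 the geometric mean was 84.1 and 90.7 kb in Nip and 97.7 and 119 kb in 93-11 (0.810-fold, 95% interval 0.700 to 0.938, limma adjusted p = 0.030). On chromosome 10 it was 78.5 and 81.9 kb in Nip and 96.7 and 92.1 kb in 93-11 (0.850-fold, limma adjusted p = 0.019), and on chromosome 2 it was 66.4 and 67.7 kb in Nip and 77.6 and 78.0 kb in 93-11 (0.861-fold, limma adjusted p = 0.021). Both Nip libraries lay below both 93-11 libraries on 10 of 12 chromosomes. No chromosome was called with all 8 libraries in the fit or with the median in place of the geometric mean. None was called without Nip replicate 1, 1 without Nip replicate 2, and 3 without either library of 93-11. On chromosome 4 the sizes were alike, with 82.6 and 85.3 kb in Nip and 81.2 and 87.5 kb in 93-11.

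**Figure D5:**
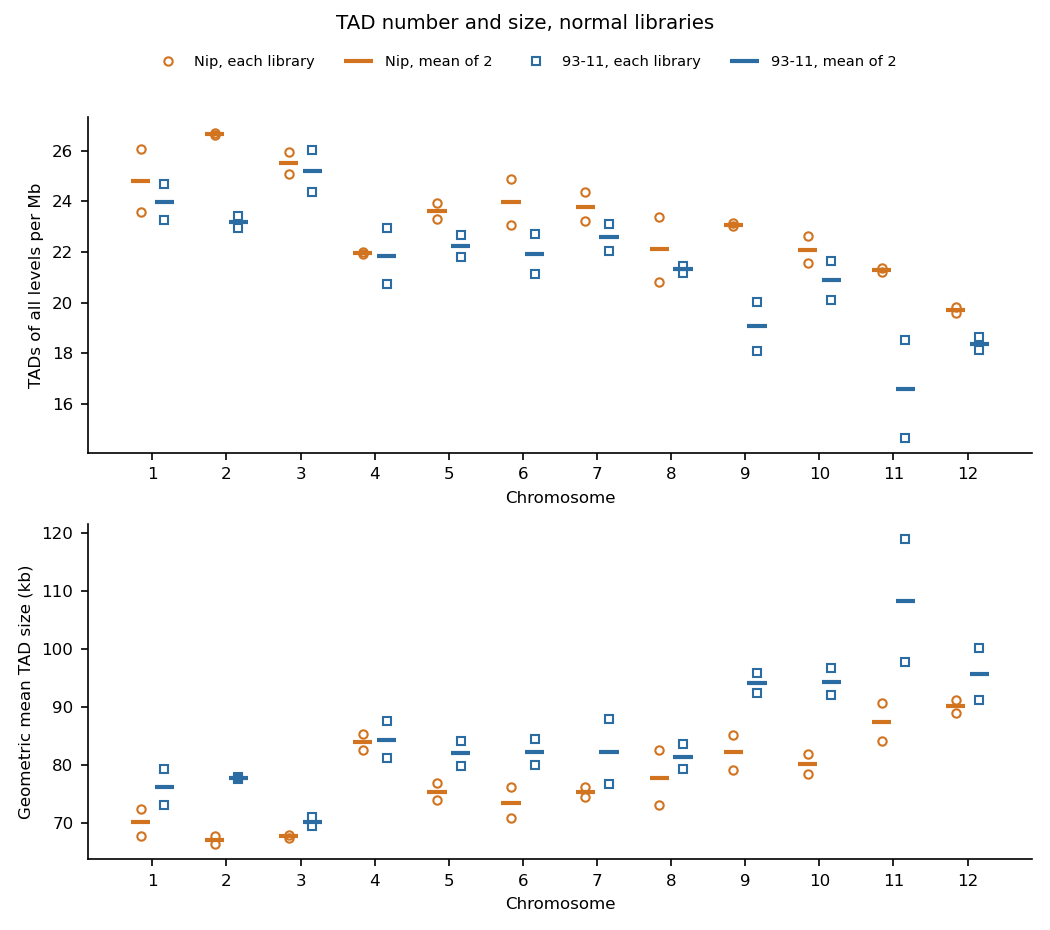
TADs of all levels per Mb (upper panel) and geometric mean TAD size in kb (lower panel) on each of the 12 chromosomes, for 2 normal libraries of Nip (orange circles) and 2 of 93-11 (blue squares), with bars at the means. The mean number per Mb is higher and the mean size lower in Nip on all 12 chromosomes, most on chromosome 11, where the 2 libraries of 93-11 lie far apart; the axes do not start at 0.

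Outermost TADs showed the same direction with less certainty. Their number overlapped between the cultivars, with 2495 and 2345 in Nip and 2245 and 2377 in 93-11. Per Mb it did not overlap, with 6.69 and 6.29 in Nip and 5.79 and 6.13 in 93-11. Their geometric mean size was 101 and 107 kb in Nip and 118 and 112 kb in 93-11. Only chromosome 10 passed, 8.33% of 12, with 111 and 107 kb in Nip and 162 and 140 kb in 93-11 (0.725-fold, limma adjusted p = 0.0092). It was not called with all 8 libraries in the fit, without Nip replicate 1, without Nip replicate 2 or without 93-11 replicate 1. Without 93-11 replicate 2 it was called with a further chromosome. Outermost TADs without any TAD nested inside made up 48.1% and 46.7% in Nip and 43.3% and 45.3% in 93-11.

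Nesting depth did not separate the cultivars. The mean level was 1.24 and 1.29 in Nip and 1.33 and 1.24 in 93-11, and the share of TADs at level 2 or above was 34.7% and 36.3% in Nip and 38.1% and 34.8% in 93-11. A lower mean level in Nip was called on chromosome 10 alone, 8.33% of the chromosomes, with 1.23 and 1.32 in Nip and 1.49 and 1.49 in 93-11 (-0.21 ± 0.063 levels, SE, limma adjusted p = 0.042). No library could be left out without losing this call, and without 93-11 replicate 1 a further 2 chromosomes were called as higher in Nip instead. The call was also lost with the share of TADs at level 2 or above in place of the mean level. The highest level on chromosome 10 was 6 and 6 in Nip and 5 and 6 in 93-11.

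Coverage by TADs was nearly complete in both cultivars. Outermost TADs covered 97.8% and 98.1% of the genome in Nip and 97.9% and 97.7% in 93-11. Only chromosome 4 passed the threshold, 8.33% of 12, with 98.2% and 98.2% in Nip and 96.5% and 97.2% in 93-11 (1.30 ± 0.434 percentage points, SE, adjusted p = 0.021). This call was lost with all 8 libraries in the fit, without Nip replicate 1, without Nip replicate 2 and without 93-11 replicate 1. The longest stretch of chromosome 4 outside any TAD was 35 and 40 kb in Nip and 400 and 405 kb in 93-11, the longest gap of any chromosome in both 93-11 libraries.

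TADs were also compared by compartment, assigned by the bin at their midpoint. TADs in B were larger than TADs in A in both cultivars. Their geometric mean was 82.1 and 84.8 kb in B and 66.8 and 68.2 kb in A in Nip, and 88.8 and 88.0 kb in B and 74.9 and 74.6 kb in A in 93-11. The B to A ratio of TAD size was 1.23 and 1.24 in Nip and 1.19 and 1.18 in 93-11. TADs of A chromatin were smaller in Nip by a factor of 0.903 and those of B chromatin by 0.944. Outermost TADs in B overlapped between the cultivars, with 126 and 134 kb in Nip and 136 and 126 kb in 93-11, while those in A were 86.4 and 91.3 kb in Nip and 103 and 98.4 kb in 93-11. The size difference was thus plainer in A chromatin, though the difference between compartments was not tested.

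The largest TADs of each list had the same size in both replicates, 620 kb in Nip and 645 kb in 93-11, at different places. Nip replicate 1 had 4 of this size, on chromosomes 3 (27120001 to 27740000 and 27975001 to 28595000) and 4 (7365001 to 7985000 and 17040001 to 17660000), and Nip replicate 2 had 4, on chromosomes 7, 8 and 12. Each library of 93-11 had 2, on chromosomes 4 (27695001 to 28340000) and 5 (15390001 to 16035000) in replicate 1 and on chromosomes 2 and 8 in replicate 2. No such TAD was shared by both replicates of a cultivar. The methods name hicFindTADs as the caller, and whether it made the deposited nested lists is not given in the sources used here.

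The HS libraries were used to ask whether these cultivar differences were of another size after HS. The A to B gene ratio was 1.63 and 1.63 in Nip and 1.79 and 1.79 in 93-11 after HS. It was lower in both Nip libraries on all 12 chromosomes there too. Gene numbers per bin come from the annotation of each cultivar, so this ratio could change after HS only through the A and B calls. Genome-wide TAD size kept its direction, with 48.4 and 48.5 kb in Nip and 53.0 and 52.1 kb in 93-11. On chromosomes 4, 7 and 12 the mean was higher in Nip after HS. In both cultivars these sizes were below those of the normal libraries. The paper reports larger TADs after HS, but for lists with far fewer TADs than the nested lists used here. The 2 statements are thus not about the same set of TADs, and the reason for their opposite direction was not tested. The A share did not keep its direction, with 49.97% and 49.81% in Nip and 49.85% and 50.04% in 93-11 after HS. Of the 40 calls, 36, among them the 12 for the gene ratio, had the same direction in the means of the HS libraries. The others were TAD number on chromosome 11 (25.2 TADs per Mb in Nip and 25.6 in 93-11 after HS), A run length on chromosome 8 (log2 difference -0.07 after HS), the mean level on chromosome 10 (1.01 in Nip and 0.979 in 93-11 after HS) and coverage on chromosome 4 (86.5% in Nip and 88.0% in 93-11 after HS). A test of the difference itself, the limma interaction over all 8 libraries, passed the threshold for the A share of chromosomes 9 and 10 and for no other of the 108 combinations of measure and chromosome. Among these combinations, 14 had an unadjusted p under 0.05.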

How the data were processed

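Hi-C was done by the authors on 8 libraries with Dpn II digestion, and the 4 normal libraries were compared here. According to the methods, the authors mapped reads with Bowtie2 inside HiC-Pro, while the submitters' processing notes name cutadapt 1.0, BWA and HiC-Pro 2.8.1. The genome build is not given in the sources used here. The deposited compartment files hold a score per 50-kb bin (first principal component, 3 decimals), and the methods describe HOMER at 100 kb. The deposited TAD lists nest, unlike those of the hicFindTADs run in the methods. Contact depth is unknown from the files, so no counting intervals are given, and the precision is that of 2 libraries per cultivar.

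Other values used per the labels and files were gene numbers per bin and TAD starts, ends and levels. Per chromosome, A share, mean log2 run lengths (an unscored bin ends a run), log2 ratio of genes per A to per B bin, TADs per Mb, mean log2 size of all and of outermost TADs, mean level and coverage were computed in Python 3.11.15 (pandas 2.3.3) and compared with limma 3.58.1 in R 4.3.3, two-sided, Nip minus 93-11, with no covariate. Only the functions for run lengths and merged lengths were tested, on made lists with known answers. Named were, per measure, at most 3 chromosomes past the threshold per direction, the longest runs, the longest opposite stretches and the largest TADs. Alternatives were all 8 libraries in the fit, a replicate block, adjustment within a measure, each library left out, and other definitions of each measure. The comparison and its measures were chosen with earlier results of these data known.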

Additional observations from a re-analysis of the deposited data

Results flagged for a closer look

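The cultivar difference in A share was of another size after HS on 2 chromosomes, by the limma interaction over all 8 libraries. On chromosome 10 the A share was 45.6% and 45.4% in Nip and 45.2% and 44.7% in 93-11 in normal libraries, and 43.4% and 44.5% in Nip and 46.8% and 47.8% in 93-11 after HS. Nip minus 93-11 was above 0 in normal and below 0 in HS libraries, and higher by 3.94 percentage points in normal libraries (adjusted p = 0.00014, limma interaction). On chromosome 9 the share was 43.8% and 44.3% in Nip and 46.0% and 46.9% in 93-11 in normal libraries, and 43.8% and 42.9% in Nip and 49.5% and 48.6% in 93-11 after HS, so that Nip minus 93-11 was negative in both and higher, that is closer to 0, by 3.29 percentage points in normal libraries (adjusted p = 0.0016, limma interaction).

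For 5 genome-wide values, both Nip libraries lay on one side of both 93-11 libraries under normal conditions and on the other side after HS. These reversals were not tested. Genes per A bin differed by -0.0392 under normal conditions (Nip minus 93-11) and by 0.0098 after HS. The A share among bins with 1 to 2 genes was 7.10% and 6.95% in Nip and 6.45% and 6.65% in 93-11 under normal conditions, a difference of 0.477 percentage points, against -1.59 after HS. The share of A/B borders within 10 kb of an outermost TAD border was 26.5% and 23.5% in Nip and 28.1% and 27.9% in 93-11 under normal conditions. The difference was -3.01 percentage points, against 3.90 after HS. For all edges between scored bins, the difference was 1.13 percentage points under normal conditions, where the libraries of the cultivars overlapped, and 4.71 after HS. The excess in Nip after HS was thus not particular to A/B borders. The ratio of TADs per Mb in A to that in B was 1.07 and 1.08 in Nip and 1.07 and 1.07 in 93-11 under normal conditions, a difference of 0.00713, against -0.0285 after HS. TADs of 45 to 95 kb differed by 1.30 percentage points in share under normal conditions and by -1.81 after HS.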

How the results depend on the processing

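With 2 libraries per cultivar, p-values measure only the spread between these libraries. Of the 40 calls, 18 were kept without each library in turn, 12 of them the gene ratio. Leaving out 1 library gave 3 to 7 calls for A share, 3 to 4 for A runs, 2 to 3 for B runs, 1 to 3 for TAD number, 0 to 3 for TAD size, and 0 to 2 for outermost size, nesting and coverage. It gave genome-wide differences of -0.0657 to 0.0213 levels and of -0.0129 to 0.240 percentage points of coverage.

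Deviations of same-numbered libraries had r = -0.0184 over 108 values, and by measure from -0.431 for the gene ratio to 0.457 for TAD size. With 2 libraries per cultivar, whether the replicate numbers pair the libraries cannot be told from this. The replicate block left 4 calls for A share, 1 for TAD number, and 0 for nesting and coverage. With all 8 libraries, there were 8 calls for A runs and 0 for TAD number, TAD size, outermost size and coverage. Adjustment within the measure left 0 for nesting and coverage. With unscored bins skipped, A and B runs had 3 calls each and the genome-wide B difference turned to 0.066 (log2). Without single-bin runs, A runs had 3 calls and the B difference was -0.131. The gene ratio differed by -0.088 (log2) without empty bins, and by 0.0044 on chromosome 9. As a plain difference it was -0.404 genes. TAD number differed by 0.529 per Mb at level 0, and by 0.249 with 1 call at 50 kb or more. Median sizes differed by -0.153 (log2) with 0 calls, and by -0.234 for outermost TADs. Outermost TADs of 50 kb or more differed by -0.085 in size and -1.08 percentage points in coverage. The share at level 2 or above differed by -0.942 percentage points, with 0 calls. TADs of at most 300 kb, chosen after seeing the data, gave 2 calls for TAD size and 2 for outermost size. Same-sign windows were 93.3% of 25 and 87.0% of 100 windows per chromosome. The causes of these shifts were not tested, beyond what each definition leaves out.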

Other observations

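Outermost TADs that held both A and B bins made up 14.5% and 15.1% in Nip and 16.7% and 17.1% in 93-11, beside the lower number of A/B borders per Mb in Nip. Across the 12 chromosomes, the log2 length ratio of Nip to 93-11 correlated with the log2 ratio of TAD size (r = 0.659), of TADs per Mb (r = -0.474), of genes per B bin (r = -0.480) and of genes per A bin (r = -0.124). These are descriptions over 12 points that share their libraries. Chromosome length is also the divisor of TADs per Mb, so a negative r is partly built into that value. The mean level of TADs was the measure with the least resemblance between cultivars across chromosomes (r = 0.0147), and genes per B bin the one with the most (r = 0.953), among the 12 measures so compared.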
